A study of Homo sapiens with 24 samples.

Results

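The clustered histone genes are the replication-dependent genes for the linker histone H1 and the core histones H2A, H2B, H3 and H4. Members were taken as the gene symbols made of H1-, H2AC, H2BC, H3C or H4C followed by digits alone, so that pseudogenes were left out. The report covers 69 genes found by this rule, of the 59609 genes counted. Of these, 9 encode H1, 16 H2A, 17 H2B, 13 H3 and 14 H4. On GRCh38, 55 lie in the large histone cluster of chromosome 6 and 11 in the smaller one of chromosome 1. The name "clustered" does not hold for the other 3: H1-7, H1-8 and H1-10 match the symbol rule but lie alone, on chromosome 12 for H1-7 and chromosome 3 for the others. Values for them are given, and they are kept apart where the cluster matters.

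Gene counts were obtained from 2 ER-negative breast cancer lines, the mesenchymal MDA-MB-231, grown in RPMI medium, and the epithelial MDA-MB-453, grown in DMEM. Both carried the label wild-type, and no gene was edited in either. Cells of each line were kept for 5 days in DMSO, the vehicle, in 500 nM abemaciclib, in 5 nM fulvestrant, or in the combination of the drugs at these doses. Abemaciclib inhibits CDK4 and CDK6, the kinases that let cells pass from G1 into S phase, and fulvestrant is a selective degrader of the oestrogen receptor. There were 3 biological replicates in each of the 8 groups, 24 libraries in all. The lines differed in medium as well as in origin, and the parts of line and medium in any difference between them cannot be told apart.

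Most histone messages are made in S phase, when new DNA has to be packaged, and they differ from other mRNAs in their 3′ end. They carry no poly(A) tail: the transcript is cleaved just after a short stem-loop, which is bound by SLBP, the stem-loop binding protein. The libraries were primed with oligo(dT), which anneals to poly(A), so ordinary histone mRNA without a tail is largely outside the measurement. What was counted is histone RNA that ends in adenosines or holds a run of them, and levels here are not levels of total histone mRNA. H1-10 is an exception among the members, with a tailed message of the usual kind.

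The stem-loop, searched as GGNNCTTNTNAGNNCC on the coding strand within 100 bases after the stop codon, was found in all 66 genes of the 2 clusters and in none of the 3 lone H1 genes. Among 19924 protein-coding genes of GENCODE 44, 72 held the motif, or 0.361%. The sequences below are those of 6 members whose counts moved in different directions, each with 5 flanking bases, and capitals mark the stem-loop. They show how alike the element is in genes that rose and in genes that fell.
H4C3, chr6:26104312-26104337, plus strand: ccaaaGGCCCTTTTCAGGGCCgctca
H4C8, chr6:26285126-26285151, minus strand: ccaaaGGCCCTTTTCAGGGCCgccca
H1-2, chr6:26055739-26055764, minus strand: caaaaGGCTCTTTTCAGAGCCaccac
H2BC21, chr1:149886183-149886208, minus strand: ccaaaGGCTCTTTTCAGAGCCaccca
H2AC20, chr1:149887386-149887411, plus strand: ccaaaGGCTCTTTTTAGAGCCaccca
H3C10, chr6:27810511-27810536, plus strand: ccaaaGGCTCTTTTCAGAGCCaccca
The 16 capital bases of H4C3 and H4C8 are identical, and so are those of H1-2, H2BC21 and H3C10. Over all 66 genes the centre of the element read CTTTTCAG in 49, CTTTTAAG in 9, CTTTTTAG in 5, CTTCTCAG in 2 and CTTCTAAG in 1.

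Library totals ran from 2873558 to 4158762 counts, and levels are given below as CPM, the count of a gene scaled to a library total of 1000000. With 3′ libraries, each transcript gives reads near its end, so CPM does not depend on gene length in the way of whole-transcript counts. The labelled cell types were checked on their markers. The epithelial markers summed to 1966 to 2570 CPM in MDA-MB-453 and 315 to 474 CPM in MDA-MB-231, where 6 of 7 had counts. The mesenchymal markers summed to 2268 to 2924 CPM in MDA-MB-231, whereas VIM, CD44 and AXL were at 0 in every MDA-MB-453 library. The other mesenchymal marker, ZEB1, had counts in 3 MDA-MB-453 libraries, at up to 0.696 CPM. ESR1, the gene of the oestrogen receptor, had counts in 2 MDA-MB-231 libraries, at up to 1.37 CPM, and in 1 MDA-MB-453 library, at 2.19 CPM. The mitochondrial share of the counts was higher under abemaciclib than under DMSO, at 12.2% ± 1.05 against 8.83% ± 0.213 (SD, n = 3) in MDA-MB-231 and 23.8% ± 1.91 against 15.2% ± 0.650 in MDA-MB-453. With mitochondrial genes left out, the numbers of histone genes called under abemaciclib were unchanged in both lines.

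The members were very unevenly read. Of the 69 genes, 59 had at least 1 count in the 24 libraries, and 10 were at 0 throughout: H1-1, H1-6, H1-7, H1-8, H2AC1, H2AC7, H3C4, H3C14, H3C15 and H4C7. Together the members took 133411 counts, and H4C3 with 75323, H1-2 with 21698 and H1-10 with 13382 held 82.8% of them. The 13 members that averaged at least 10 CPM over all libraries held 96.6%. The other 46 with counts shared the remaining 3.43%, and 34 of these had fewer than 100 counts each in total. Filtering on low counts left 14 members for testing in MDA-MB-231, 26 in MDA-MB-453 and 13 in both. The 32 members with a count that passed the filter in neither line had totals of 1 to 74 counts over the 24 libraries and were not tested. A few of them had counts in one group and 0 in another. H2BC18 and H2AC12, singled out after their values were seen, each had 16 counts under DMSO in MDA-MB-231 and 0 under abemaciclib, at least 5.58-fold lower with the floor of 3 counts over the group. That bound takes the 16 counts as exact and is no test. A member may pass the filter only through the group in which it is high, so the members tested do not stand for all 69.

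**Figure D1:**
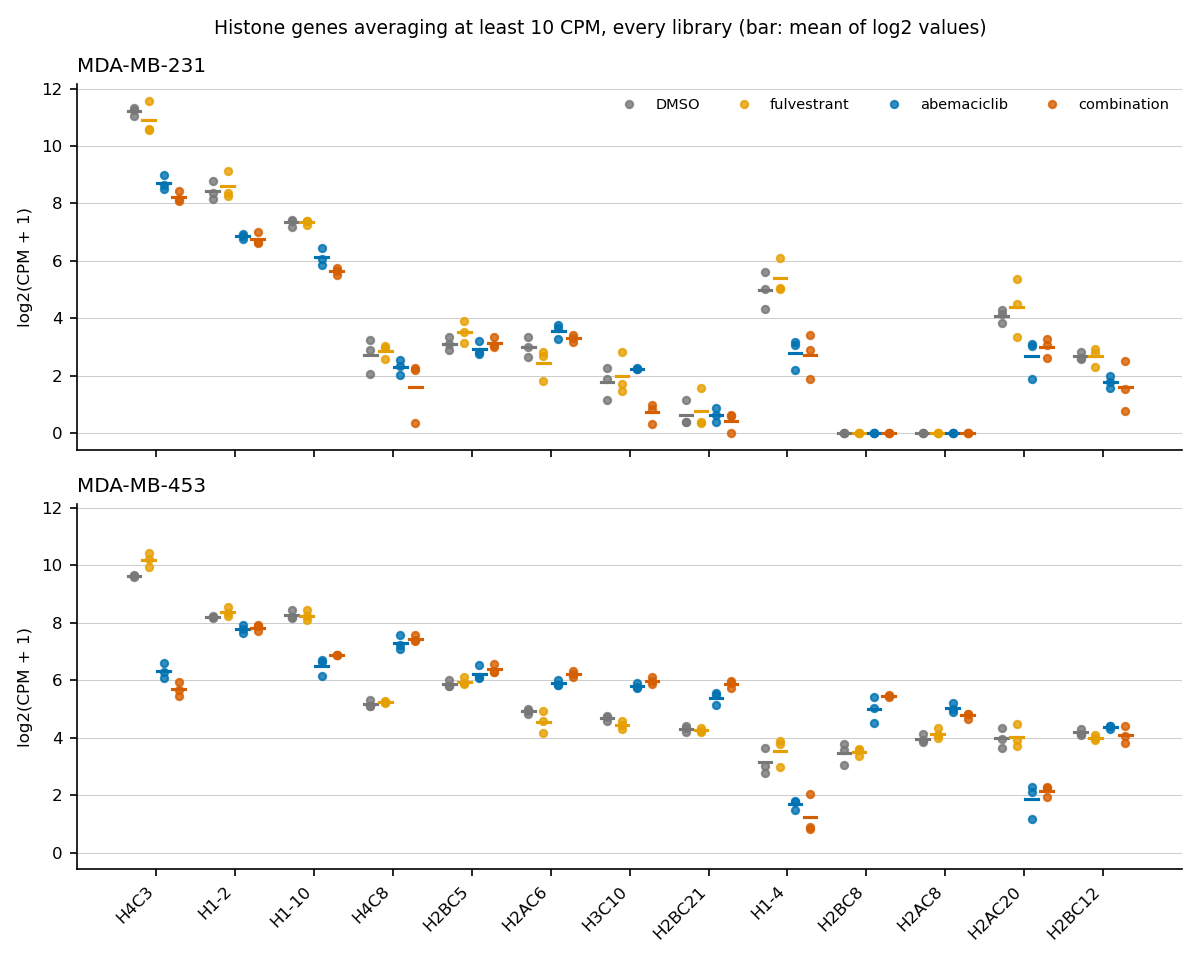
Level of 13 histone genes that averaged at least 10 CPM in every library, as log2(CPM + 1), with 1 panel per cell line, 1 point per library, a colour per treatment and a bar at the mean of the 3 log2 values. In the DMSO libraries of both lines H4C3 and the linker genes H1-2 and H1-10 lie above the others, and H2BC8 and H2AC8 are at 0 in all 12 MDA-MB-231 libraries.

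Of the core histones, H4 was read most under DMSO, and nearly all of it from H4C3 there. H4C3 spans chr6:26103933-26104337 on the plus strand. In MDA-MB-231 its level was 2558, 2116 and 2423 CPM in the DMSO libraries and 361, 509.9 and 397 CPM in the abemaciclib libraries. Every treated library lay below every vehicle library, and H4C3 fell by 2.48 on the log2 scale (SE 0.15, adjusted p = 4e-17, edgeR quasi-likelihood test with Benjamini-Hochberg adjustment over all genes tested, as for each adjusted p below). In MDA-MB-453 the DMSO libraries gave 767, 786 and 807 CPM and the abemaciclib libraries 66.8, 95.8 and 76.4 CPM. There H4C3 fell by 3.22 (SE 0.12, adjusted p = 1e-26).

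H4C8, which encodes the same kind of core histone, moved differently. It lies on the minus strand at chr6:26277609-26285638. In MDA-MB-453 it rose from 33.3, 38.9 and 33.5 CPM under DMSO to 192, 135 and 148 CPM under abemaciclib, up by 2.25 on the log2 scale (SE 0.13, adjusted p = 1.9e-19). In MDA-MB-231 the level was 8.53, 3.21 and 6.36 CPM under DMSO and 4.83, 3.04 and 4.11 CPM under abemaciclib. These groups overlapped, and H4C8 was not called there (log2 fold change −0.58, SE 0.43). H4C8 shares exon sequence with a gene on the opposite strand, and the strand used in counting is not stated, so reads of the pair may not be separable.

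The linker histone H1 binds the DNA that enters and leaves the nucleosome. Of the H1 genes reported, those tested all fell under abemaciclib, 3 of 3 in MDA-MB-231 and 5 of 5 in MDA-MB-453. Over all genes tested, 16.9% and 19.4% were called lower. H1-3 and H1-5 had few or no counts under abemaciclib and passed the filter through the groups without it, which favoured a fall. H1-10, counted in both lines, lies outside the clusters. H1-2, at chr6:26055740-26056470 on the minus strand, has the stem-loop shown above. In MDA-MB-231 its DMSO libraries gave 285, 326 and 444 CPM and its abemaciclib libraries 114, 122 and 109 CPM. It fell by 1.61 there (SE 0.15, adjusted p = 1.6e-11). In MDA-MB-453 the levels were 284, 297 and 299 CPM against 243, 200.3 and 219 CPM, a smaller drop: H1-2 fell by 0.33 (SE 0.09, adjusted p = 0.0044). H1-10, at chr3:129314771-129316286, went from 172, 167 and 145 CPM to 56.5, 86.0 and 66.6 CPM in MDA-MB-231. It went from 345, 295 and 287 CPM to 97.7, 103 and 70.6 CPM in MDA-MB-453. H1-10 fell by 1.21 (SE 0.13, adjusted p = 3.9e-10) and by 1.68 (SE 0.11, adjusted p = 3.9e-17). An antisense gene, H1-10-AS1, overlaps it.

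H1-4, at chr6:26156329-26157115, was read at lower levels. The MDA-MB-231 libraries held 19.2, 31.5 and 47.9 CPM under DMSO and 7.95, 7.29 and 3.56 CPM under abemaciclib. Those of MDA-MB-453 held 5.84, 7.12 and 11.4 CPM and then 1.77, 2.46 and 2.40 CPM. Treated and vehicle libraries did not overlap in either line, and H1-4 fell by 2.39 (SE 0.34, adjusted p = 3.1e-07) and by 1.79 (SE 0.49, adjusted p = 0.003). The remaining H1 genes tested, H1-3 and H1-5, passed the filter in MDA-MB-453 alone. H1-3 had 32, 48 and 31 counts in the DMSO libraries and 4, 5 and 0 in the abemaciclib libraries, and fell by 3.53 (SE 0.56, adjusted p = 1.5e-06). H1-5 had 12, 5 and 2 counts under DMSO and 0 in each abemaciclib library, and with the group set at the floor of 3 counts it was at least 6.48-fold lower.

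H2A and H2B genes went both ways in MDA-MB-453. H2A and H2B form the dimer that is added to the nucleosome last, and their genes often stand head to head with a shared promoter. H2AC6, at chr6:26124145-26139116, rose from 31.3, 29.3 and 27.7 CPM under DMSO to 64.3, 56.6 and 56.8 CPM under abemaciclib. Its log2 fold change was 1.09 (SE 0.16, adjusted p = 3.5e-07). H2AC8, at chr6:26216921-26217437, rose from 13.4, 16.7 and 14.1 CPM to 31.1, 28.7 and 36.4 CPM, by 1.20 (SE 0.21, adjusted p = 1.1e-05). H2AC20, at chr1:149886918-149887411, was at 19.3, 11.5 and 14.4 CPM under DMSO and 1.27, 3.28 and 3.91 CPM under abemaciclib, and it fell by 2.34 (SE 0.39, adjusted p = 3.3e-06). In each of these genes the abemaciclib libraries lay wholly on one side of the DMSO libraries.

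Of the H2B genes in MDA-MB-453, H2BC8 at chr6:26216200-26216688 stood at 10.8, 12.9 and 7.20 CPM under DMSO and at 42.0, 31.7 and 21.6 CPM under abemaciclib. It rose by 1.71 (SE 0.23, adjusted p = 7.8e-08). H2BC21, at chr1:149884459-149886682, rose from 17.2, 19.4 and 20.2 CPM to 46.3, 44.3 and 34.0 CPM, by 1.21 (SE 0.18, adjusted p = 4.1e-07). H2BC5, at chr6:26158122-26171349, gave 63.4, 54.2 and 54.8 CPM and then 66.3, 90.6 and 68.2 CPM. It was called higher at 0.47 (SE 0.14, adjusted p = 0.0063), but without abemaciclib replicate 2, its highest library, the value was 0.30 and the adjusted p 0.12. H2BC12, at chr6:27146361-27146855, was not called: its 3 DMSO libraries gave 19.0, 16.7 and 16.1 CPM and its abemaciclib libraries 20.5, 18.6 and 20.1 CPM. Below these levels H2BC7 was read at 16, 13 and 24 counts under DMSO and at 2 counts in each abemaciclib library, and it fell by 3.02 (SE 0.73, adjusted p = 0.00081).

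In MDA-MB-231 the H2A and H2B genes just described were read less, apart from H2AC20. None of the 4 H2A and 3 H2B genes tested there was called higher. H2AC20 had 18.6, 16.6 and 13.3 CPM under DMSO and 7.10, 2.73 and 7.67 CPM under abemaciclib, and it fell by 1.45 (SE 0.38, adjusted p = 0.0022). H2AC14 had 41, 30 and 47 counts under DMSO and 9, 15 and 15 counts under abemaciclib, and it fell by 1.65 (SE 0.40, adjusted p = 0.0013). H2AC6 gave 9.14, 5.26 and 6.97 CPM against 11.6, 8.81 and 12.6 CPM. Those groups overlapped, and the value of 0.63 (SE 0.36, adjusted p = 0.18) did not pass. H2BC5 was at 9.14, 6.42 and 7.57 CPM and then 8.23, 5.77 and 6.03 CPM, with a log2 fold change of −0.20. H2BC12 gave 6.10, 4.96 and 5.15 CPM against 1.99, 2.43 and 3.01 CPM. These libraries did not overlap, but at this depth the fall of H2BC12 did not pass the test (log2 fold change −1.11, SE 0.56, adjusted p = 0.13). H2BC21 held 0.305, 0.292 and 1.21 CPM under DMSO and 0.852, 0.304 and 0.548 CPM under abemaciclib, a few counts in each library, and was not tested.

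H3, whose tail carries many of the known histone marks, was mainly read from H3C10, at chr6:27810051-27811300, in MDA-MB-453. There it rose from 23.1, 26.3 and 25.5 CPM under DMSO to 59.0, 52.0 and 53.5 CPM under abemaciclib, by 1.22 (SE 0.16, adjusted p = 3.4e-08). In MDA-MB-231 it was at 1.22, 3.80 and 2.73 CPM and then 3.69, 3.65 and 3.84 CPM, with overlapping groups and no call (log2 fold change 0.52). H3C3 was at a like level in MDA-MB-231, with 8, 6 and 13 counts under DMSO and 6, 5 and 0 under abemaciclib, and its value of −1.32 (SE 0.77, adjusted p = 0.19) did not pass.

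Counted over all members tested for abemaciclib against DMSO, 0 of 14 were higher and 6 of 14 lower in MDA-MB-231, where 16.9% of all 11314 genes tested were called higher and 16.9% lower. The median log2 fold change was −1.16 over the members and −0.00053 over all genes. The 6 were H4C3, H1-2, H1-4, H1-10, H2AC14 and H2AC20. In MDA-MB-453, 8 of 26 members were higher and 10 lower, against 16.6% and 19.4% of all 11080 genes tested. Here the median was −0.11 over the members and −0.0019 over all genes. No tested H2B or H3 gene was called in MDA-MB-231. In MDA-MB-453, 4 of 10 H2B genes were higher and 2 lower, 2 of 5 H2A genes were higher and 2 lower, 1 of 3 H3 genes was higher, and of 3 H4 genes H4C8 was higher and H4C3 lower. In bulk libraries, fewer cells in a given state and less RNA in each cell cannot be told apart.

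**Figure D2:**
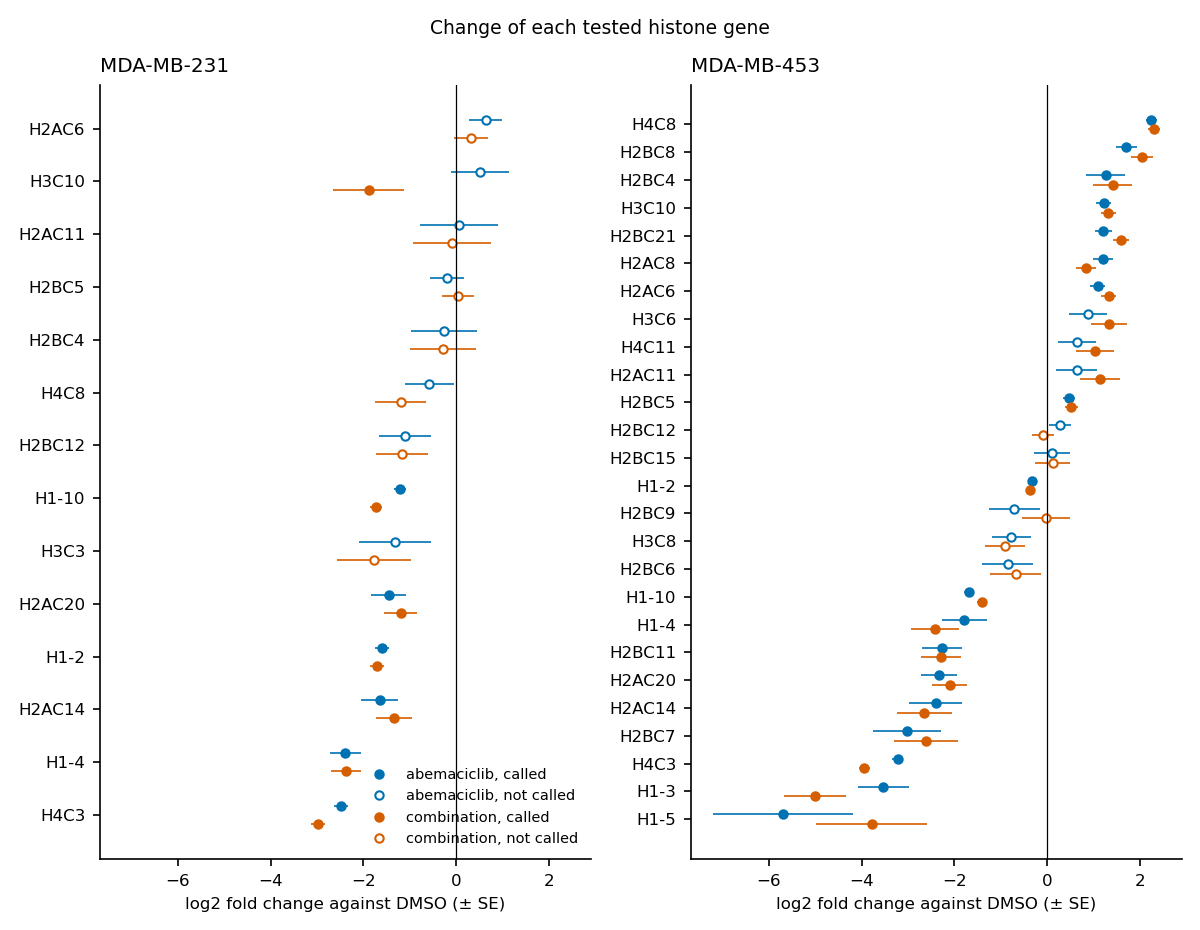
Log2 fold change against DMSO with its standard error for every histone gene tested (14 genes in MDA-MB-231, 26 genes in MDA-MB-453) under abemaciclib and under the combination. Filled points are genes called at an adjusted p below 0.05. In MDA-MB-231 the called points all lie below 0, and in MDA-MB-453 they lie on both sides, with H4C8 at the high end. H1-5, at 0 under abemaciclib in MDA-MB-453, is drawn at its fitted value, which is no bound.

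The sums over each histone class give the weight of these changes. They are descriptions and were not tested. In MDA-MB-231 the H1 sum was 546 ± 81.8 CPM (SD, n = 3) under DMSO and 191 ± 21.3 CPM under abemaciclib, and the H4 sum was 2574, 2122 and 2432 CPM in the DMSO libraries against a mean of 429.6 ± 76.3 CPM. The H2A sum there was 40.7 ± 4.62 and 22.5 ± 4.81 CPM, the H2B sum 22.2 ± 2.41 and 15.6 ± 2.06 CPM, and the H3 sum 6.98 ± 1.58 and 5.35 ± 0.163 CPM. In MDA-MB-453 the H4 sum was 831 ± 23.5 and 248 ± 18.6 CPM, and the H1 sum 622 ± 21.8 and 314 ± 26.2 CPM. The other classes had larger sums under abemaciclib in that line: the H2A sum was 74.6 ± 5.63 and then 103 ± 3.85 CPM, the H2B sum 143 ± 7.10 and 192 ± 22.1 CPM, and the H3 sum 41.6 ± 2.59 and 69.6 ± 8.83 CPM. H1-10, which lies outside the clusters, counts towards the H1 sums. From DMSO to abemaciclib its MDA-MB-453 mean dropped from 309 ± 31.3 to 90.6 ± 17.5 CPM. The clustered H1-2 went from 293 ± 8.28 to 221 ± 21.2 CPM, so H1-10 held the larger part of the H1 drop there. The MDA-MB-231 means dropped from 161 ± 14.7 to 69.7 ± 15.0 CPM for H1-10 and from 352 ± 82.1 to 115 ± 7.00 CPM for H1-2.

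**Figure D3:**
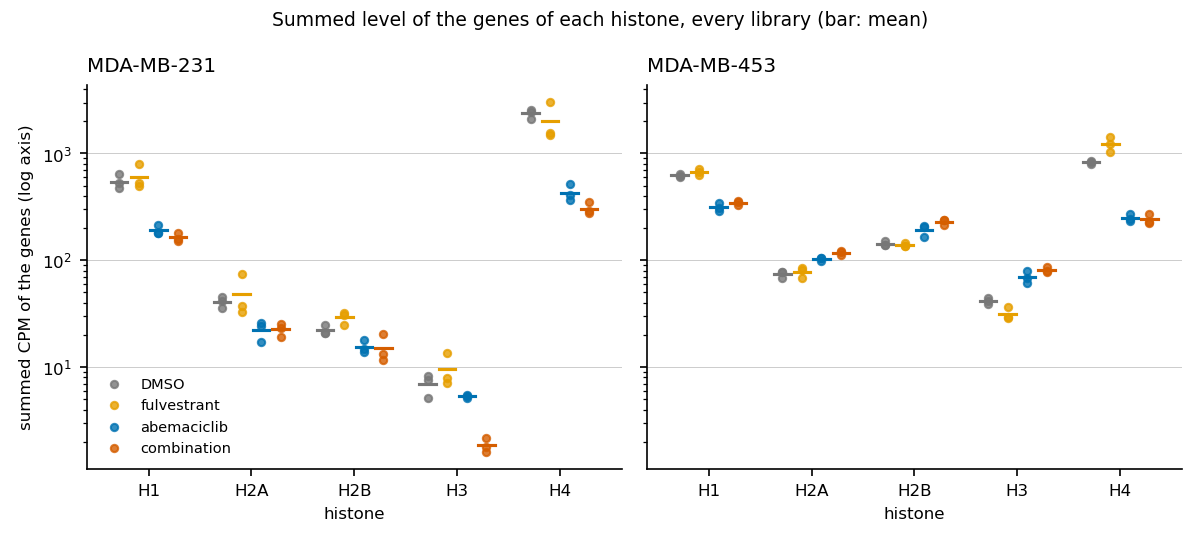
Summed CPM of the genes of each histone class in every library, on a log axis, by line and treatment, with a bar at the mean of 3 libraries. In both lines the H4 and H1 sums are lower under abemaciclib and the combination than under DMSO, and in MDA-MB-453 the H2A, H2B and H3 sums are higher.

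The share of H4C3 in the counts of the 69 genes moved with these sums. In MDA-MB-231 it was 79.0% ± 2.46 in vehicle and 63.4% ± 2.88 with abemaciclib. In MDA-MB-453 it was 46.0% ± 1.29 and 8.65% ± 1.92. Without H4C3 and the 3 H1 genes outside the clusters, the members of MDA-MB-231 summed to 465 ± 92.3 CPM with vehicle and 172 ± 5.14 CPM with abemaciclib, and those of MDA-MB-453 to 617 ± 7.77 and 757 ± 71.0 CPM.

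The response to abemaciclib was compared between the lines, gene by gene, by subtracting the log2 fold change of MDA-MB-231 from that of MDA-MB-453. Of 13 members, 3 had a higher value in MDA-MB-453 and 1 a lower one, and over all 12750 genes tested 7.72% and 13% were called in those directions. H4C8 differed by 2.83 (SE 0.40, adjusted p = 2.7e-07), being called higher in MDA-MB-453 and not called in MDA-MB-231. H1-2 differed by 1.29 (SE 0.20, adjusted p = 2.3e-06), with the larger fall in MDA-MB-231. H4C3 fell further in MDA-MB-453, by a difference of −0.73 (SE 0.22, adjusted p = 0.0139). This was not called with DESeq2 (adjusted p = 0.10) or without MDA-MB-231 abemaciclib replicate 2, where it was −0.56 (adjusted p = 0.08). H2BC12 differed by 1.40 (SE 0.51, adjusted p = 0.042), which was lost in 15 of 18 alternatives. For H1-10 the difference was −0.46 (SE 0.18, adjusted p = 0.058), and it was called in 10 of 18 alternatives, among them DESeq2 (−0.47, adjusted p = 0.048) and leaving out mitochondrial genes (−0.53, adjusted p = 0.023).

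The lines already differed under vehicle. In the DMSO libraries, 20 of 27 members were higher in MDA-MB-453 and 3 were lower, where 34.3% and 35.6% of all genes were. The filter shaped this count, since 26 members passed it in MDA-MB-453 and 14 in MDA-MB-231. Of the 27, 8 were at 0 in MDA-MB-231 and passed through MDA-MB-453 alone, so they could only be called higher there. The median log2 difference was 2.61 with the members at 0 in MDA-MB-231 set to their bound. The 3 lower ones were H4C3, by a log2 difference of −1.52 (SE 0.15, adjusted p = 2e-12), H1-4, by −1.94 (adjusted p = 6e-06), and H3C3, by −2.68 (adjusted p = 0.011). H3C3 rested on 27 counts in MDA-MB-231 against 4 in MDA-MB-453, and it was not called without MDA-MB-231 DMSO replicate 3 (−2.32, adjusted p = 0.055) or without MDA-MB-453 DMSO replicate 3 (−2.13, adjusted p = 0.067). Higher ones included H2BC5, by 2.96 (SE 0.21, adjusted p = 2e-17), H4C8, by 2.61, and H1-10, by 1.00 (SE 0.12, adjusted p = 4.2e-10). H1-2 and H2AC20, with differences of −0.20 and −0.04, did not pass the test. In order of level under DMSO, H4C3 led in both lines, at 2366 ± 226 CPM in MDA-MB-231 and at 787 ± 19.7 CPM in the other line. It was followed in MDA-MB-231 by H1-2 at 352 ± 82.1 and H1-10 at 161 ± 14.7 CPM. In MDA-MB-453, H1-10 at 309 ± 31.3 and H1-2 at 293 ± 8.28 CPM differed by less than the SD of H1-10.

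Of the 20 members higher in MDA-MB-453, 7 lie in a stretch of the chromosome 6 cluster that gave no counts in MDA-MB-231. In genome order, 15 neighbouring histone genes, from H4C4 to H2BC10 at chr6:26188710-26273412 (84.7 kb), were at 0 in all 12 libraries of that line. A count of 0 over the 42620524 counts of the line allows up to 0.0704 CPM for each gene, for counting error only. In MDA-MB-453, 12 of the 15 had counts, 3304 in all, and 7 were tested. The flanking members were read in both lines, H2BC6 with 15 counts in MDA-MB-231 against 139 in MDA-MB-453, and H4C8 with 199 against 4316. Against the floor of the MDA-MB-231 group, DMSO levels in MDA-MB-453 were at least 49.3-fold higher for H2AC8, at least 35.3-fold for H3C8, at least 34.6-fold for H1-3 and at least 34.3-fold for H2BC8. The run was noticed after the values were seen. Its genes did not move as one in MDA-MB-453, where H2BC8 and H2AC8 rose under abemaciclib while H1-3 and H2BC7 fell, and their summed level was 63.6 ± 4.60 CPM under DMSO, 84.5 ± 15.3 under abemaciclib, 63.5 ± 3.47 under fulvestrant and 98.0 ± 3.31 under the combination.

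**Figure D4:**
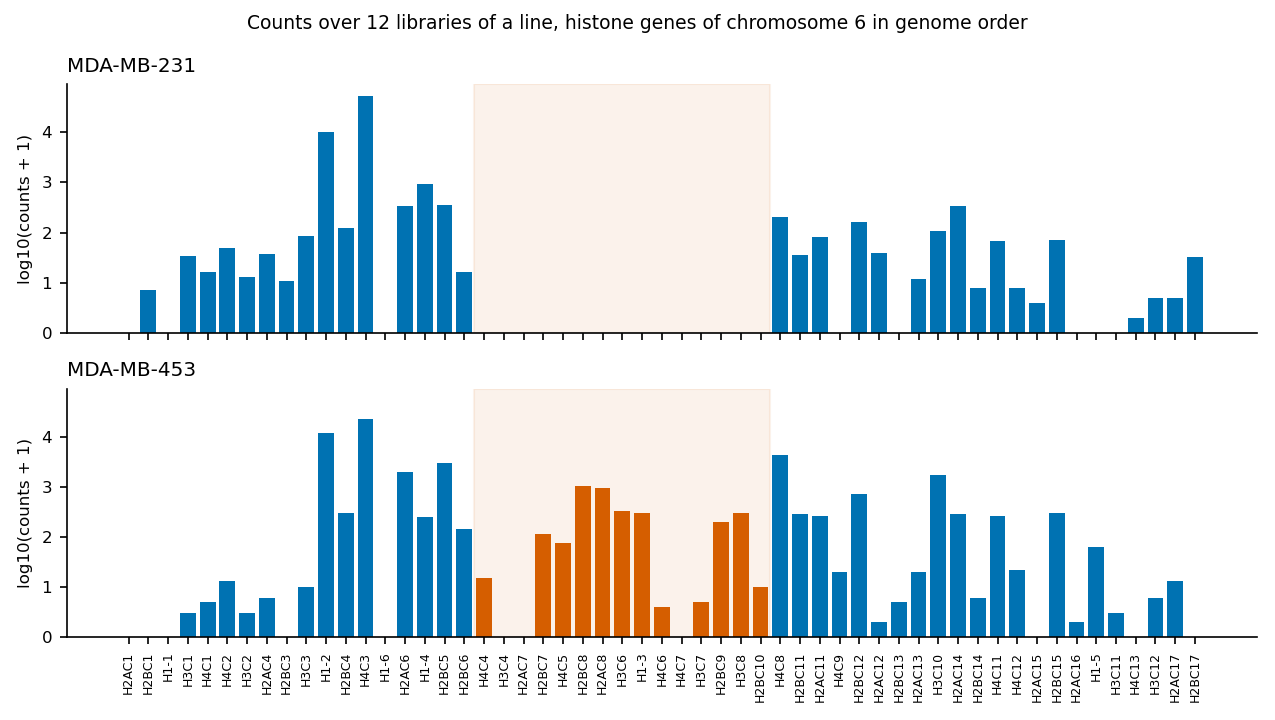
Counts of the 55 histone genes of chromosome 6, in genome order, as log10(counts + 1) summed over the 12 libraries of each line. The shaded run holds 15 neighbouring genes at 0 in MDA-MB-231, of which 12 have counts in MDA-MB-453.

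Histone genes of the clusters differ in whether the annotation holds a transcript that runs past the stem-loop, where a poly(A) signal can be used. An annotated end more than 200 bases after the stop codon was taken as such a long form, and 14 of the 66 stem-loop genes had one. H2BC21 had 1 annotated transcript, the long form alone. In MDA-MB-453 under abemaciclib, 6 of the 10 tested genes with a long form were higher and 1 was lower, with a median log2 fold change of 0.99. Those higher were H4C8, H2BC4, H3C10, H2BC21, H2AC6 and H2BC5, and the lower one was H2BC11. Of the 15 tested genes with only a short form, 2 were higher, H2BC8 and H2AC8, and 8 were lower, with a median of −0.78. In MDA-MB-231, 0 of 5 genes with a long form were called, and 5 of 8 with only a short form were lower, with medians of −0.20 and −1.53. There 16.9% of all genes tested were higher and 16.9% lower. The counts are per gene and cannot tell which end was read, several of these genes are neighbours, and no test was made of the split. Of the short-form genes lower in MDA-MB-453, H1-5, H2BC7 and H1-3 were at 0, 0.55 and 0.79 CPM under abemaciclib. They passed the filter through the groups without abemaciclib, so the filter favoured falls among them.

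**Figure D5:**
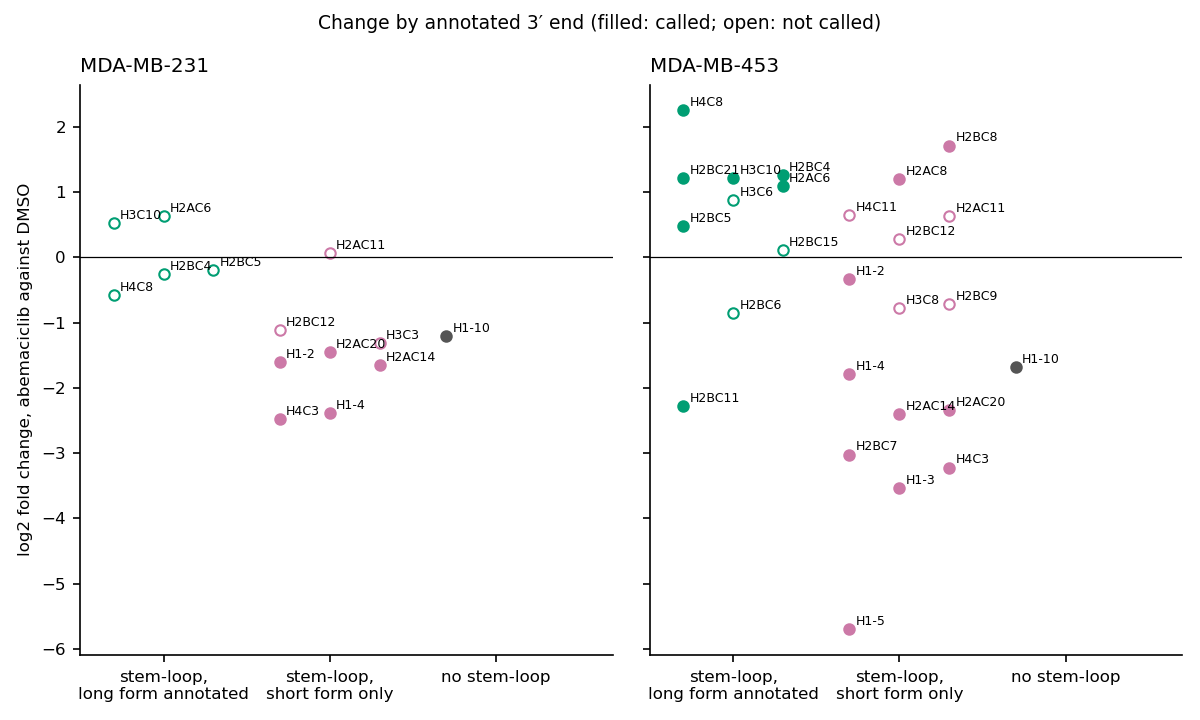
Log2 fold change under abemaciclib against DMSO for each tested histone gene, split by 3′ end: stem-loop with an annotated long form, stem-loop with a short form alone, and no stem-loop. Filled points are called. In MDA-MB-453, 6 of 10 genes with a long form were called higher, and 8 of 15 with only a short form were called lower. Some of the latter passed the filter only through groups without abemaciclib. Of all genes tested in that line, 16.6% were called higher and 19.4% lower.

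H4C3, the gene read most, has no annotated long form, and its first AATAAA, the usual poly(A) signal, lies 234 bases after the stop codon. In H1-2 the distance was 56 bases, in H2BC5 65, in H3C10 365 and in H2AC6 805, and AATAAA stood within 1000 bases in 34 members. These include H1-8 and H1-10, which have no stem-loop. The share of other genes with AATAAA in such a stretch was not counted, so the 34 cannot be read as many or few. The longest run of A in the shortest annotated message of each member was 3 to 7 bases. It was 7 in H4C3, in H1-3, and in H1-1 and H2AC1, which were at 0 counts throughout.

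Neighbouring genes with a shared promoter were compared next. The annotation holds 11 head-to-head pairs of an H2A and an H2B gene, with spacers of 169 to 250 bases. All 11 spacers held CCAAT and 9 held the octamer ATTTGCAT, each searched on both strands. In RefSeq promoters on GRCh38, from 250 bases before to 50 after the start, the octamer was in 10 of 14 H2A and 14 of 17 H2B members and in 1.77% of all 34943 promoters. It was in 1 of 11 H3, 0 of 12 H4 and 0 of 9 H1 members. CCAAT was in 34.6% of all promoters, in every H2A, H2B and H3 member matched, in 8 of 9 H1 members and in 3 of 12 H4 members. The spacers of a pair that went opposite ways and of a pair that rose together are given on the plus strand of GRCh38, with capitals on the octamer and CCAAT, either way round.
H2BC21 and H2AC20, chr1:149886683-149886917: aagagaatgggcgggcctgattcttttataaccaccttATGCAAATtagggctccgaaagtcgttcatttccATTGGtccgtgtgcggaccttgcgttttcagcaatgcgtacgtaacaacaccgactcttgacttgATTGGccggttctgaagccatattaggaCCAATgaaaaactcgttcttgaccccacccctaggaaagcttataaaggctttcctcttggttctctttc
H2BC8 and H2AC8, chr6:26216689-26216920: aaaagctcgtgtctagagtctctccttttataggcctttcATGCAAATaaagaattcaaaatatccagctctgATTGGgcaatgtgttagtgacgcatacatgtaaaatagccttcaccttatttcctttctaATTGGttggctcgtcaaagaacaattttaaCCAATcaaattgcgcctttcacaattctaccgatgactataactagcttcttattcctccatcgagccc

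In both spacers the octamer stands once and CCAAT 3 times. Across the first, H2BC21 rose by 1.21 and H2AC20 fell by 2.34 under abemaciclib in MDA-MB-453. Across the second, H2BC8 rose by 1.71 and H2AC8 by 1.20. There were 4 pairs with both genes tested in that line, named here because they are pairs and after their values were seen. H2BC4 and H2AC6 were both higher, and H2BC11 was lower (log2 fold change −2.27, SE 0.43) while H2AC11 was not called. In MDA-MB-231, H2BC4 and H2AC6 were the one pair tested, and neither was called.

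With both drugs, the picture in MDA-MB-231 was that of abemaciclib, with 0 of 14 members higher and 7 lower against DMSO, where 17% and 18.3% of all genes were called. The comparisons with abemaciclib and with the combination share their DMSO libraries. H4C3 was at 273, 283 and 344 CPM under the combination, lower than under DMSO by a log2 fold change of −2.98 (adjusted p = 1.1e-19). H1-10 gave 53.4, 49.3 and 44.6 CPM (log2 fold change −1.72, adjusted p = 4.4e-14). H1-2 was at 96.7, 101 and 128 CPM and H1-4 at 2.69, 9.62 and 6.44 CPM. H2AC20, at 8.62, 7.45 and 5.15 CPM, was lower by a log2 fold change of −1.20 (adjusted p = 0.0082), which became −1.02 (adjusted p = 0.054) without combination replicate 3. H3C10, at 0.808, 0.962 and 0.258 CPM, or a few counts, was called lower in MDA-MB-231, but not in 11 of 12 alternatives. The other members described in full were not called there. H4C8 was at 0.269, 3.61 and 3.87 CPM, H2AC6 at 8.08, 8.90 and 9.79, H2BC5 at 7.01, 7.45 and 9.28 and H2BC12 at 1.89, 0.721 and 4.64 CPM. H2BC21, not tested, was at 0.539, 0 and 0.515 CPM.

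Set against abemaciclib alone in MDA-MB-231, the combination gave 0 calls among 14 members with edgeR and 0 with DESeq2, and 0.00884% and 0.0177% of all genes were called higher and lower. At an unadjusted p below 0.05 there were 3, H4C3, H1-10 and H3C10, each lower with the combination, with log2 fold changes of −0.50 (SE 0.15, adjusted p = 0.17), −0.51 (SE 0.14, adjusted p = 0.14) and −2.40 (SE 0.73, adjusted p = 0.20). Without the filter on low counts, and in a fit of the groups compared alone, edgeR called H4C3.

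In MDA-MB-453 the combination gave 11 of 26 members higher and 10 lower against DMSO, where 17.6% and 20% of all genes were. Of the 11, H4C11 lost its call in 7 of 13 alternatives, H2AC11 in 6 and H3C6 in 3. H4C3 went down to 43.2, 49.5 and 60.5 CPM, at a log2 fold change of −3.94 with SE 0.12 (adjusted p = 3.3e-29). H4C8 stood at 169, 163 and 189.7 CPM, higher by 2.30 (adjusted p = 8e-20), and H2BC21 at 61.2, 58.5 and 52.6 CPM, higher by 1.59 (adjusted p = 5.2e-10). In none of the 3 did these libraries overlap those under DMSO.

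Among the other members under the combination in MDA-MB-453, H2BC8 was at 41.4, 44.0 and 42.4 CPM, H2AC6 at 74.1, 68.6 and 79.7, H3C10 at 68.6, 57.9 and 61.5, H2AC8 at 27.5, 24.3 and 27.6 and H2BC5 at 77.3, 93.8 and 76.6 CPM, all called higher. H1-2 was at 208, 237 and 240.0 CPM, H1-10 at 117, 116 and 117, H1-4 at 3.13, 0.869 and 0.766 and H2AC20 at 2.78, 3.77 and 3.83 CPM, all called lower. H2BC12, at 20.2, 13.0 and 15.8 CPM, was not called. The low-count genes with the largest falls were H1-3, with 0, 0 and 3 counts (log2 fold change −5.00, SE 0.67), H1-5, with 0, 1 and 0 counts (−3.78, adjusted p = 0.01), and H2AC14 (−2.65, adjusted p = 0.00033). Without combination replicate 3, the fitted values of H1-3 and H2AC14 were −8.19 and −4.61, and H1-5 was no longer called (−3.25, adjusted p = 0.065). H1-5 was also not called without DMSO replicate 1 (−2.92, adjusted p = 0.11), and over all alternatives its value ran from −5.70 to −2.92. Against abemaciclib alone, 0 of the 26 members were higher and 1 lower, where 1.25% and 1.21% of all genes were. H4C3 was lower, at −0.72 on the log2 scale (SE 0.13, adjusted p = 0.00056).

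Fulvestrant alone moved few members. In MDA-MB-231, 0 of 14 were called against DMSO by edgeR and 0 by DESeq2, and 0% of all genes were called higher and 0% lower. At an unadjusted p below 0.05 there was 1, H2AC11, at 2.15 on the log2 scale (SE 0.72, adjusted p = 0.46). H4C3 gave 3025, 1489.6 and 1535 CPM in the fulvestrant libraries, of which the first lay above all DMSO libraries and the other two below them. H1-2 at 558, 307 and 332, H1-4 at 67.6, 31.3 and 32.2 and H2AC20 at 40.1, 21.3 and 9.06 CPM were also highest in replicate 1. Without that library, H4C3 was lower than under DMSO by a log2 fold change of −0.63 (adjusted p = 2.1e-05). That library had MKI67 at 539.8 CPM against 374 and 394 in the other two, while 20 other S phase genes summed to 2299.6 CPM in it and to 2477 and 2427 CPM in the others, and their part in the result was not tested. H1-10, at 165, 153 and 165 CPM, did not show the split. Compared over all genes with at least 20 counts in a pair, replicate 1 differed from replicates 2 and 3 at a chi-square per degree of freedom of 8.65 and 7.81. Replicates 2 and 3 differed from each other at 2.96. The members at lower levels had fulvestrant values of 7.22, 6.82 and 4.97 CPM for H4C8, 5.49, 2.56 and 6.14 for H2AC6, 14.2, 10.5 and 7.89 for H2BC5, 6.64, 3.98 and 5.85 for H2BC12, 6.07, 2.27 and 1.75 for H3C10 and 0.289, 1.99 and 0.292 CPM for H2BC21.

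In MDA-MB-453, fulvestrant gave 1 of 26 members higher and 0 lower, where 1.01% and 0.397% of all genes were. The gene was H4C3, at 1189, 1393 and 983 CPM against 767, 786 and 807 CPM under DMSO, with no overlap. It rose by 0.54 (SE 0.10, adjusted p = 0.0029), and without fulvestrant replicate 2 the value was 0.41 (adjusted p = 0.14). At an unadjusted p below 0.05 there were 4 members, the others being H2AC6 at 29.3, 17.1 and 22.9 CPM, H2BC6 and H3C8, all with values below DMSO that did not pass the adjustment. H4C8 at 37.1, 37.6 and 36.4, H2BC21 at 18.0, 17.6 and 19.2, H3C10 at 18.8, 21.0 and 23.2 and H2BC5 at 67.6, 57.8 and 58.3 CPM, all 4 higher under abemaciclib, were not called under fulvestrant. Their groups overlapped with DMSO. The linker genes were at 322, 379 and 303 CPM for H1-2, 273, 299 and 347 for H1-10 and 12.9, 13.7 and 6.92 CPM for H1-4. H2BC8 was at 11.3, 9.19 and 10.8, H2AC8 at 16.1, 19.2 and 15.0, H2AC20 at 12.1, 21.3 and 14.1 and H2BC12 at 14.8, 14.2 and 16.2 CPM, and none of these genes was called.

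Genes that run S phase and supply histones were read from lists. In MDA-MB-231 the 21 S phase genes summed to 2881 ± 7.80 CPM under DMSO and 1410.0 ± 43.6 CPM under abemaciclib. The sums in MDA-MB-453 were 1966 ± 37.6 and 261 ± 11.3 CPM. Their part in the histone results was not tested. Of these genes 19 of 21 were called lower and 0 higher in the first line and 21 of 21 lower in the second, with median log2 fold changes of −0.92 and −3.16. The shares called lower over all genes were 16.9% and 19.4%. PCNA, the sliding clamp of replication, fell by 1.14 (adjusted p = 1.4e-08) and by 2.83 (adjusted p = 2.5e-22). CCNE2, the cyclin that partners CDK2 at the start of S phase, fell by 1.25 (adjusted p = 0.00014) and by 6.85 (adjusted p = 2.2e-12). In MDA-MB-453 it had 162 counts under DMSO and 1 under abemaciclib, below the floor of 3, so the size of that fall is a fitted value. The proliferation marker MKI67 had log2 fold changes of −1.45 (adjusted p = 3.6e-14) and −7.28 (adjusted p = 9.9e-30). Under the combination 20 and 21 of the 21 were lower, where 18.3% and 20% of all genes were. The S phase sum under fulvestrant was 2837 ± 15.5 and 2176 ± 72.9 CPM.

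The next list holds the factors that make the stem-loop end and regulate histone mRNA. Of the 28 genes of histone pre-mRNA processing, 0 were called higher and 9 lower under abemaciclib in MDA-MB-231 (median −0.29), while 3 were higher and 10 lower in MDA-MB-453 (median −0.34). The shares called over all genes tested were 16.9% each way in MDA-MB-231. For MDA-MB-453 they were 16.6% up and 19.4% down. SLBP did not pass in MDA-MB-231 (log2 fold change −0.44, SE 0.19, adjusted p = 0.074) and fell by 0.79 in MDA-MB-453 (SE 0.19, adjusted p = 0.00078). NPAT, the activator of histone transcription in the histone locus body, fell by 0.92 (adjusted p = 9.5e-05) in MDA-MB-231 and had a value of −0.32 in MDA-MB-453 (adjusted p = 0.30). ERI1, an exonuclease that trims histone mRNA, was not called, at −0.18 (adjusted p = 0.58) and −0.42 (adjusted p = 0.42).

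Of the 22 histone chaperones and supply genes, 1 rose and 9 fell in MDA-MB-231 (median −0.46), and 4 rose and 12 fell in MDA-MB-453 (median −0.47). Among all genes, 16.9% rose and 16.9% fell in MDA-MB-231, and 16.6% rose and 19.4% fell in MDA-MB-453. NASP, which keeps the pool of soluble H3 and H4, fell by 0.72 (adjusted p = 1.3e-06) and by 1.45 (adjusted p = 5.3e-13). CHAF1A, of the assembly factor that works behind the replication fork, fell by 0.89 (adjusted p = 3e-06) and by 1.88 (adjusted p = 2.2e-12). ASF1B, another chaperone of H3 and H4, had a value of −0.02 in MDA-MB-231 (adjusted p = 0.92) and fell by 3.59 in MDA-MB-453 (adjusted p = 5.3e-22).

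The last list holds histone genes that the symbol rule left out. It includes replacement histones, which are made outside S phase as well, but was not limited to them. H2AW, H2BU1, H3-4 and H4-16 are also in it. Whether each listed gene has a tailed message was not tested. Of the 16 variants listed, 8 were tested in MDA-MB-231, with 0 higher and 6 lower (median −0.52), and 11 in MDA-MB-453, with 1 higher and 5 lower (median −0.86). Calls over all genes were 16.9% up and 16.9% down in the first line, then 16.6% up and 19.4% down in the second. H2AX, the variant phosphorylated at DNA breaks, fell by 1.55 (adjusted p = 7.9e-13) and by 2.93 (adjusted p = 9.6e-18). H2AZ1 fell by 0.48 (adjusted p = 2.9e-05) and by 1.59 (adjusted p = 1.5e-20). H3-3B, which encodes H3.3, fell by 0.86 (adjusted p = 7.3e-11) in MDA-MB-231 and had a value of −0.08 in MDA-MB-453 (adjusted p = 0.44). H2AJ had a value of 0.36 in MDA-MB-231 (adjusted p = 0.10) and fell by 0.86 in MDA-MB-453 (adjusted p = 1.7e-10). MACROH2A1 fell by 0.51 (adjusted p = 0.00012) in MDA-MB-231 and had a value of 0.15 in MDA-MB-453 (adjusted p = 0.19), and MACROH2A2, tested in MDA-MB-453 alone, had −1.35 (adjusted p = 0.12).

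Some members cannot be told from a copy or an overlapping gene. H2AC18 and H2AC19, H3C14 and H3C15, and H4C14 and H4C15 share their last 100 bases, which is where 3′ reads fall. H2BC4 and H2BC6 overlap exons on the opposite strand, and H2AC6 overlaps another gene on its own strand.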

How the data were processed

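The members and gene lists were chosen with earlier results of these data known. Of the 70 genes that match the symbols, 1 is not reported here, and counts of members are over the other 69. RNA of 24 samples was made into QuantSeq forward 3′ libraries, primed with oligo(dT). According to the labels and methods, the authors used BBDuk for trimming, STAR for alignment to hg38 and featureCounts for counting per gene on a GENCODE annotation. The deposited values are raw gene counts, without normalisation. The strand used and the handling of multiply aligned or duplicate reads are not given in the sources used here, so intervals and floors cover counting error only. 1 row names no gene and holds 0 counts. In the check for copies, replicate pairs gave a chi-square per degree of freedom of 2.64 to 8.65, so none was a copy of another.

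Fits were made with edgeR 4.0.16 (R 4.3.3): filterByExpr, TMM scaling and quasi-likelihood fits to the 12 libraries of each line, or to all 24 for comparisons between lines. The biological coefficient of variation was 13.4% (MDA-MB-231) and 12.6% (MDA-MB-453). Tests were 2-sided, with Benjamini-Hochberg adjustment over all genes tested, and genes were called below 0.05. The pipeline was tested on simulated data. CPM used library totals; the floor of a gene at 0 was 3 counts over a group, or 0.255 to 0.30 CPM. Members averaging at least 10 CPM were described in full; of the others tested, up to 3 called genes with the largest change were named per comparison, besides 15 fixed genes of the lists. Alternatives were DESeq2 1.42.0 for testing or scaling, no filter, only the groups compared, a replicate block, no mitochondrial genes, a 1.5-fold minimum, and leaving out each library. Positions, ends and stem-loops came from GENCODE 44 on GRCh38 and were read with pysam 0.24.0, and promoters from RefSeq, which held 63 of the members.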

Additional observations from a re-analysis of the deposited data

Results flagged for a closer look

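The change under abemaciclib differed between the lines, tested as MDA-MB-453 minus MDA-MB-231 with edgeR's quasi-likelihood test on all 24 libraries, in 4 of 13 members. H4C8 had a difference of 2.83 in log2 fold change (adjusted p = 2.7e-07), with values above every DMSO library in the 3 treated MDA-MB-453 libraries. H1-2 had a difference of 1.29 (adjusted p = 2.3e-06), with lower levels in all 3 treated libraries of both lines. H2BC12 had a difference of 1.40 (adjusted p = 0.042) and H4C3 one of −0.73 (adjusted p = 0.0139), and neither held under every alternative.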

How the results depend on the processing

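Over the alternatives, 126 counts of called members stayed within 1.5 times their value, 6 dropped below that range and 3 rose above it. With a minimum of 1.5-fold, the combination against DMSO had 4 called members in MDA-MB-231, and there were 0 for fulvestrant against DMSO and for the combination against abemaciclib in MDA-MB-453, and 2 for the difference between lines. The combination against abemaciclib in MDA-MB-231 gave 1 call, H4C3, without the filter and with only the groups compared. Leaving out 1 library gave 0 to 1 calls for fulvestrant in either line and 2 to 4 for the difference between lines. For abemaciclib against DMSO, the counts without 1 library were 6 in MDA-MB-231 in each case and 17 to 18 in MDA-MB-453. In that line, H2BC4 lost its call in 3 alternatives, such as without abemaciclib replicate 1 (0.89, adjusted p = 0.15), and H2AC14 was lost with DESeq2 (adjusted p = 0.068). The causes of these changes were not tested. Depth limits the members of a few counts, most of which were too low to be tested.

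Once group means were removed, libraries of different groups sharing a replicate number correlated at −0.0923 to 0.0446 (MDA-MB-231) and −0.0647 to 0.0435 (MDA-MB-453). Libraries with different numbers gave −0.0527 to 0.0898 (MDA-MB-231) and −0.0819 to 0.126 (MDA-MB-453). Whether libraries with the same number came from a shared culture or batch was not tested. With the replicate block, the combination against DMSO in MDA-MB-231 had 6 called members in place of 7, and the other counts matched the fit without the block.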
